A study of Mus musculus with 6 samples.

Results

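The genes described here guard germ cells against transposons, most of them through PIWI-interacting RNAs (piRNAs). They were taken as a list of 10 germline genes (Asz1, Tdrd1, Tdrd9, Mov10l1, Rnf17, Piwil2, Mael, Ddx4, Tex19.1 and Tex19.2), and all 10 lay on sequence covered by the peak list, among 36837 genes of the gene table that did. The data came from MBD-seq, in which the protein MBD2, a binder of methylated CpG, pulls down sonicated DNA for sequencing, so that reads gather where CpG sites are methylated. The cells were primary chondrocytes, the cells of cartilage, cultured from the knee articular cartilage of mice at postnatal days 3 to 5. The 6 cultures were 3 controls of genotype Dnmt1 flox and 3 conditional knockouts (cKO) of genotype Prx1-Cre;Dnmt1 flox/flox. Both groups thus carried a floxed allele of Dnmt1, the enzyme that copies CpG methylation onto newly made DNA. Prx1-Cre is active in limb mesenchyme, so cells of another origin in a knee culture would keep Dnmt1. The labels do not say whether the controls carried Cre, or whether cultures pooled animals.

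The analysed file was 1 list of 84111 peaks, called after 3 datasets had been merged. Its deposited name calls the peaks Dnmt1-mediated DNA methylation regions but names no group. The contents do not say which group those datasets came from, and no peak has a value for any of the 6 cultures. No comparison of control with cKO was therefore possible, no spread between cultures can be given, and the depth of each culture is unknown. The list holds no expression values, so the chondrocyte label was not tested against marker genes.

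piRNAs are short RNAs bound by PIWI proteins, which use them to recognise transposon transcripts, cut them and, in fetal male germ cells, direct DNA methylation to transposon copies. The proteins that make piRNAs and load them sit in perinuclear granules beside mitochondria. In mouse somatic tissues the promoters of several of these genes are known to carry DNA methylation, and some of the genes are known to be switched on where methylation is lost.

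Every one of the 10 genes had a peak whose midpoint lay within 2 kb of a gene end, with 14 such peaks in all. Of 15871 protein-coding genes on covered sequence, 37.1% had one. The 10 genes were chosen with earlier results of these data known, so such shares are descriptive and no independent support. Within 500 bp of a gene end, 9 of the 10 genes had a peak, against 11.4% of protein-coding genes. The gene outside that window was Piwil2, whose peak had its midpoint 1383.5 bp inside the gene. Starts and strands came from a table of promoter sequences that had entries for 8 of the 10 genes, all except Rnf17 and Piwil2. In all 8 a peak overlapped the 300-base window from 250 bases before to 50 bases after the start. Among 12547 protein-coding genes with an entry, 2.92% had such a peak. The start base itself lay inside a peak in 6 of the 8 genes, against 2.41% of protein-coding genes. The exceptions were Ddx4, where peaks flanked the start, and Tex19.2, where the peak began 1 base downstream of it.

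The 250 bases upstream of the start are shown for these 8 genes, because peaks cover them in whole or in part in 7 of the 8 and because their CpG content differs widely. Sequences are from RefSeq (GRCm38.p6), written 5′ to 3′ on the strand of the gene, with each CpG in capitals. The first 6 are the genes whose start lay inside a peak.
Tex19.1, chr11:121145893-121146142, plus strand: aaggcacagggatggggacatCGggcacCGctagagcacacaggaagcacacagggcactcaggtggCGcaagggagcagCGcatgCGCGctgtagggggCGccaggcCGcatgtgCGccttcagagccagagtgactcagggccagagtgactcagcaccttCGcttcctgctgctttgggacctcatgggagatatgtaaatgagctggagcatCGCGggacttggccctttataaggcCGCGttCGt
Mael, chr1:166238745-166238994, minus strand: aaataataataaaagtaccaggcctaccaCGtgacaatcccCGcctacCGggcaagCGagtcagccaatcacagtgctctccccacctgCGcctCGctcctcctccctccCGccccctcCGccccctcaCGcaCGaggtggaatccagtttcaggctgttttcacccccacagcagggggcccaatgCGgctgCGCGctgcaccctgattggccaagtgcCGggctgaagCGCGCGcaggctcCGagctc
Asz1, chr6:18109062-18109311, minus strand: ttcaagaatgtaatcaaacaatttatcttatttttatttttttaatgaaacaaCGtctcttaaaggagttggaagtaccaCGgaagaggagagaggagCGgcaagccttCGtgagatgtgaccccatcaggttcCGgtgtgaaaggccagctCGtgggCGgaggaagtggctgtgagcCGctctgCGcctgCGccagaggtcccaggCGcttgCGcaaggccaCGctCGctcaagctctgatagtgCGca
Mov10l1, chr15:88982744-88982993, plus strand: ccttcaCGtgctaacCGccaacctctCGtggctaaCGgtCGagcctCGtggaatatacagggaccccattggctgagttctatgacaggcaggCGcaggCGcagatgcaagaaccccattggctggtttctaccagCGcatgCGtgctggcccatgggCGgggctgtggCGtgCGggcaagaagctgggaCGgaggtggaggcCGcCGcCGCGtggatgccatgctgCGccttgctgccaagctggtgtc
Tdrd1, chr19:56825959-56826208, plus strand: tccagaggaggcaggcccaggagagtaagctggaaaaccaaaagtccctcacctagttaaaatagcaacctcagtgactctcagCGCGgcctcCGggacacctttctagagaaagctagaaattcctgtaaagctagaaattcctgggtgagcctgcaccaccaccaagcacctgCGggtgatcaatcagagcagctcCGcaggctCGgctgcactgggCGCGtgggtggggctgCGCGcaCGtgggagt
Tdrd9, chr12:111971309-111971558, plus strand: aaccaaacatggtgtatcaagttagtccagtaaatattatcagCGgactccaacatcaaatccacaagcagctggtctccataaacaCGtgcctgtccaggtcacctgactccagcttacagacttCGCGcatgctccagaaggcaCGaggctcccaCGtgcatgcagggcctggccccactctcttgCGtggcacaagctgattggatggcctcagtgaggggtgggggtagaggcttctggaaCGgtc
Ddx4, chr13:112652311-112652560, minus strand: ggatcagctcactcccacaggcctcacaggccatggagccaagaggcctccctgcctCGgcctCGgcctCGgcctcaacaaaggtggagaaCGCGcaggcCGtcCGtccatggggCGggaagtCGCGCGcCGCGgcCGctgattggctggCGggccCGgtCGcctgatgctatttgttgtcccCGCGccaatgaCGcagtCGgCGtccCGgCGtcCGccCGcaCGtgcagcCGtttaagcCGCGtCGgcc
Tex19.2, chr11:121118678-121118927, minus strand: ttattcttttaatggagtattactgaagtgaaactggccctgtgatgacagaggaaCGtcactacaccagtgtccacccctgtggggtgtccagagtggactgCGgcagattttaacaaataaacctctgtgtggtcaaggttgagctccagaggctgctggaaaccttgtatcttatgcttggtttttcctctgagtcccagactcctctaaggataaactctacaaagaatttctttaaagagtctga

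These stretches held from 2 CpG (Tex19.2) to 31 CpG (Ddx4), with a median of 15, against a median of 11 over the 12547 protein-coding genes. Mov10l1 had 19, Mael 18, Asz1 and Tex19.1 15 each, Tdrd1 11 and Tdrd9 8. Peaks covered all 250 bases at Tex19.1, Mael, Asz1 and Mov10l1, 236 bases at Tdrd9, 231 bases at Tdrd1, 157 bases at Ddx4 and none at Tex19.2. In the gene table Tdrd1, Tdrd9, Mov10l1 and Ddx4 reach 38, 71, 103 and 323 bases further upstream than the start used here, so their upstream bases lie in part inside the annotated gene.

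Peaks over gene starts were rare where CpG was dense, and these genes were among the few that had both. Of 4956 protein-coding genes with at least 15 CpG upstream, 42 (0.847%) had a peak over the start window. Those 42 included 5 of the genes described here (Asz1, Ddx4, Mael, Mov10l1 and Tex19.1) and 3 further piRNA genes (Btbd18, Fkbp6 and Piwil1). Both lists were chosen with earlier results of these data known, so these counts only describe. In the classes with fewer CpG, the share with a peak was 2.79% at 10 to 14 CpG, where Tdrd1 lay, 8.64% at 5 to 9 CpG, where Tdrd9 lay, and 2.79% at 0 to 4 CpG, where Tex19.2 lay. All start windows with a peak had a median of 6 CpG upstream.

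**Figure D1:**
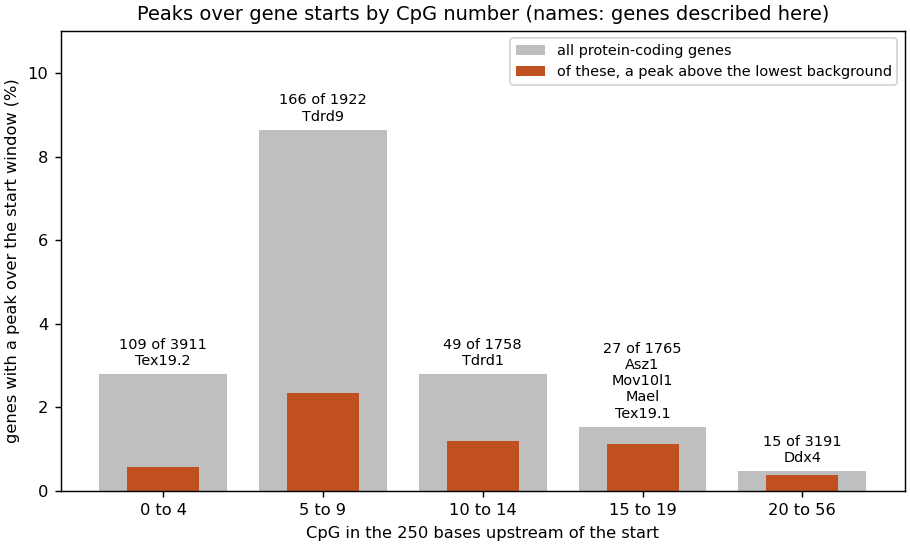
Share of protein-coding genes (vertical axis, percent) with a peak over the 300-base start window, by the number of CpG in the 250 bases upstream of the start (horizontal axis). Grey bars count any peak, orange bars only peaks whose local background exceeds the 6.37 reads shared by most peaks, numbers above the bars are genes with a peak of all genes in the class, and the names place the 8 genes described here, 5 of which stand in the 2 classes with at least 15 CpG.

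The hexamer CACGTG, an E-box that reads the same on both strands and holds a CpG, occurred in 5 of the 8 upstream stretches. It occurred in 6.82% of all 12547 stretches of that length, and in 10.7% of the 366 whose start window had a peak. These shares were not matched for CpG number. The 8 stretches had a median of 15 CpG, against 11 over all stretches and 6 in those 366. Tdrd9 had 2 copies. In Tdrd1 and Ddx4 the hexamer began 11 and 29 bases before the start, and in Mov10l1 and Mael 246 and 223 bases before it. The heptamer GCGGGAA, searched on both strands, occurred in Ddx4 alone among the 8, and in 5.05% of all stretches. It did not overlap the E-box of Ddx4. A match describes the letters and shows no binding.

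A peak's fold is the ratio of its pileup, the reads stacked at the summit, to a background, with 1 read added to each. Both were worked out from the deposited fold and p-value of each peak. A background of 6.37 reads, here called the lowest, was shared by most peaks, and 25% of all peaks stood above it. A further 5 of the 84111 peaks, none of them in these genes, came out below it. A caller of this kind normally takes a genome average as its floor. It takes a higher local value where the reads of a control set gather. Neither the labels nor the file say whether such a set was used here, or what it was. If it was the other genotype, a fold is a contrast between the groups and not a level of methylation, and a place without a listed peak may be methylated in both. These readings cannot be told apart from the list. Intervals on pileups below are exact Poisson 95% intervals. They cover counting error only, and leave out reads copied in amplification and any spread between cultures.

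At the starts, pileups differed less between these genes than backgrounds did. Taking the peak with most reads at each of the 8 starts, pileups ran from 253 to 390 reads, a range of 1.54 times. Backgrounds ran from 6.37 to 123.1 reads, a range of 19.3 times, and folds from 2.67 to 50.2. Those 8 peaks were picked by the pileup itself. Over all 11 peaks within 2 kb of these starts, pileups ran from 92 to 390 reads, a range of 4.24 times. Backgrounds of the 11 ran from 6.37 to 137.2 reads, a range of 21.5 times. Among the 8 strongest peaks the order of the pileups was Mov10l1, Asz1, Tex19.1, Tdrd9, Mael, Tex19.2, Tdrd1 and Ddx4. Intervals of neighbours in that order overlapped, whereas those of Mov10l1 (352 to 431 reads) and Ddx4 (223 to 286 reads) did not. Over all 14 gene-end peaks the median pileup was 268.5 reads, against 118 reads over the 7118 gene-end peaks of protein-coding genes. The background exceeded the lowest in 10 of the 14 peaks (71.4%), against 13.5% of protein-coding gene-end peaks. By gene, 8 of the 10 had such a peak, against 5.32% of protein-coding genes. Over the start window it was 7 of the 8, all except Tex19.2, against 0.956% of protein-coding genes, and Tex19.1, at 6.46 reads, was only just above the lowest value. The median fold, 12.5, was close to the 14.5 of all gene-end peaks. Among gene-end peaks above the lowest background, the median pileup was 321 reads here and 318.5 reads over protein-coding genes. Median backgrounds among those peaks were 30.7 and 13.6 reads, and median folds 10.1 and 16.5. Among gene-end peaks at the lowest background, the median pileups were 114.5 and 104 reads.

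**Figure D2:**
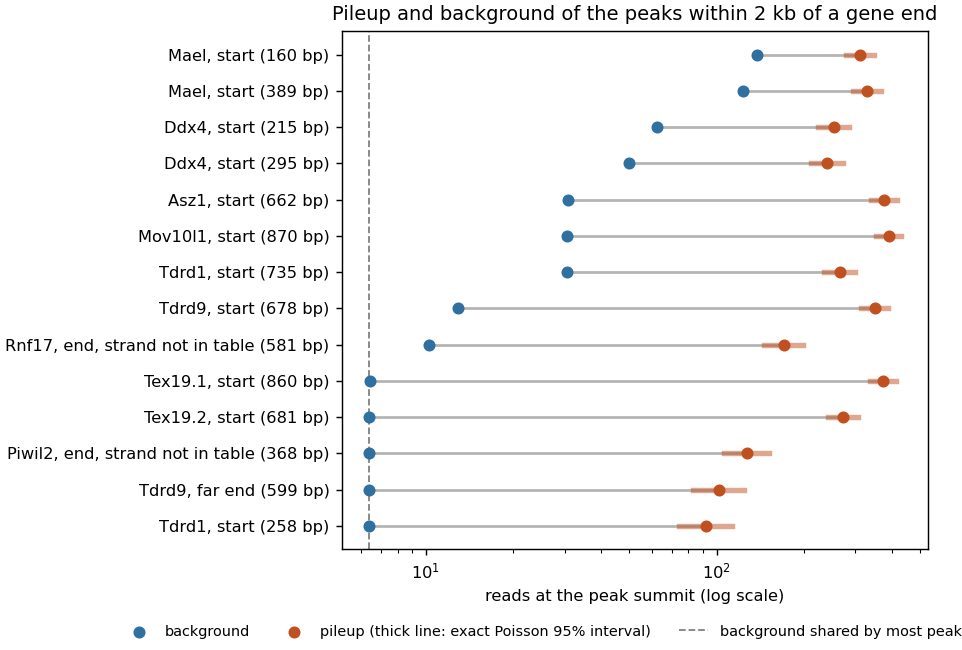
Recovered background (blue) and pileup (orange) at the summit of the 14 peaks within 2 kb of a gene end, in reads on a log axis, with exact Poisson 95% intervals of the pileup as thick lines and the background of 6.37 reads shared by most peaks as a dashed line. Peaks are ordered by background, which spans 6.37 to 137.2 reads, while most pileups lie between 240 and 390 reads.

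Tex19.1 and its neighbouring paralog Tex19.2 had the highest folds of the group. Tex19.1, which restrains LINE-1 retrotransposons in germ cells and placenta, had 1 peak of 860 bp (chr11:121145685-121146544) that reached from 458 bases before to 401 bases after the start. Its 373 reads (336 to 413) stood over 6.46 reads, a fold of 50.2, and 99.6% of protein-coding gene-end peaks had a fold at or below it. At Tex19.2 a peak of 681 bp (chr11:121117996-121118676) covered the first 681 bases downstream of the start and none of the 2-CpG stretch upstream. It had 272 reads (241 to 306) over 6.37 reads, a fold of 37.0. The intervals of both pileups did not overlap. Both genes are under 3 kb long and had no other peak, and the next peak of the list was 7081 bp from that of Tex19.1 and 19814 bp from that of Tex19.2.

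Mael stood at the other extreme. The gene encodes Maelstrom, a granule protein needed for transposon silencing and meiosis in male germ cells. Its peak over the start (chr1:166238680-166239068) had 330 reads (295 to 368) over 123.1 reads, a fold of 2.67. A narrower peak of 160 bp lay 160 to 319 bases downstream of the start (chr1:166238425-166238584), with 312 reads over 137.2 reads and a fold of 2.26. Only 0.323% and 0.183% of protein-coding gene-end peaks had folds at or below these, and 92.9% and 90.8% had pileups at or below theirs. The pileups at Mael and Tex19.1 had overlapping intervals, while their backgrounds were 123.1 and 6.46 reads. No peak lay elsewhere in the gene.

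Ddx4 (Vasa), the RNA helicase used to mark germ cells, also had low folds over a high background. Its 2 peaks lay on either side of the start used here. Both midpoints lay inside the annotated gene, 122 and 702 bases from its outer end. The upstream one (chr13:112652404-112652618) ended 94 bases before the start and had 253 reads (223 to 286) over 62.2 reads, a fold of 4.02. The downstream one (chr13:112651784-112652078) began 232 bases after the start and had 240 reads (211 to 272) over 50.1 reads, a fold of 4.72. The 325 bases between them carried no listed peak, although the start region of Ddx4 was the richest in CpG of the 8. Requiring a −log10 q of at least 100 would remove both peaks of Ddx4 and both of Mael, and leave 8 of the 10 genes with a gene-end peak.

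Asz1, Mov10l1 and Tdrd1 had nearly the same background at the start. Asz1 encodes an ankyrin-repeat protein of the granules at the mitochondrial surface, and its peak of 662 bp (chr6:18108744-18109405) had 377 reads (340 to 417) over 30.8 reads, a fold of 11.9. Mov10l1, an RNA helicase that binds piRNA precursors, had the widest gene-end peak, 870 bp (chr15:88982510-88983379), with 390 reads over 30.6 reads and a fold of 12.4. The end of the neighbouring gene Mlc1 also lay within 2 kb of this peak. Tdrd1, a Tudor-domain partner of PIWI proteins, had 265 reads (234 to 299) over 30.6 reads in its peak over the start (chr19:56825978-56826712), a fold of 8.42. A smaller peak of 258 bp followed 899 bases downstream of the start, with 92 reads over 6.37 reads and a fold of 12.6. That smaller peak had the higher fold of the pair and the lower pileup.

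Tdrd9, Rnf17 and Piwil2 completed the group. Tdrd9, a helicase that works with the nuclear PIWI protein, had 349 reads (313 to 388) over 12.9 reads in the peak over its start (chr12:111971323-111972000), a fold of 25.2. It was also the only one of the 8 genes with a known strand to have a peak at the far end (chr12:112069333-112069931), 778 bp beyond the gene, with 102 reads over 6.37 reads and a fold of 13.97. At Rnf17, a Tudor-domain protein of male germ cells, a peak of 581 bp covered the lower-coordinate end of the gene (chr14:56402509-56403089), with 170 reads (145 to 198) over 10.3 reads and a fold of 15.2. Piwil2 encodes MILI, a PIWI protein that cuts transposon transcripts. Its peak near the lower-coordinate end (chr14:70373677-70374044) had 127 reads (106 to 151) over 6.37 reads, a fold of 17.4. The pileup intervals of Rnf17 and Piwil2 overlapped, and both lay below those of the strongest start peak of each of the other 8 genes.

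**Figure D3:**
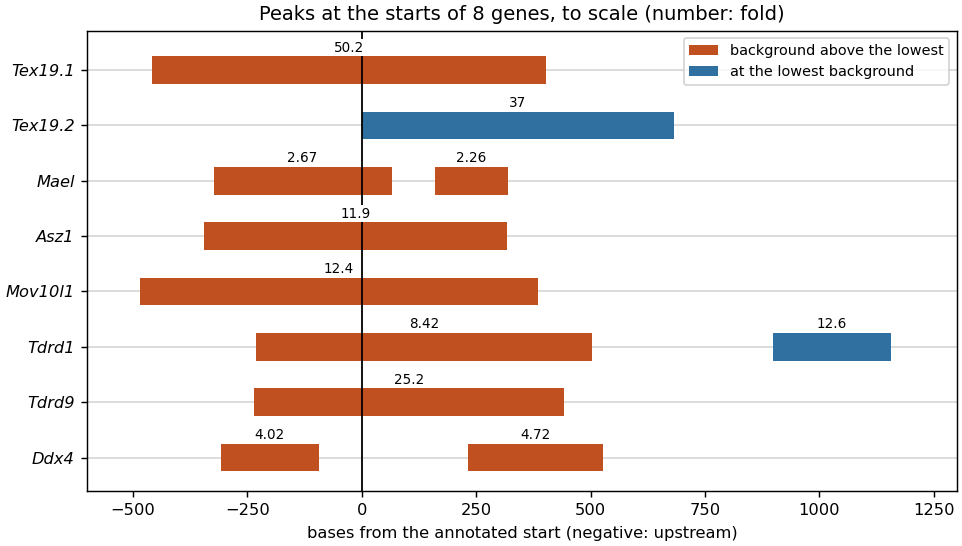
Peaks at the starts of the 8 genes with a known strand, drawn to scale as bars by distance from the annotated start in bases (horizontal axis, upstream negative), with the fold above each bar. Orange bars had a background above the lowest and blue bars the lowest; the bars of Ddx4 flank the start, and that of Tex19.2 begins just downstream of it.

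Elsewhere in the gene bodies 7 of the 10 genes had a peak, against 53.9% of protein-coding genes. Tex19.1 and Tex19.2 are too short to have any body beyond 2 kb of both ends. Among genes longer than 4 kb the count was 7 of 8, all except Mael, against 65.1% of protein-coding genes. The 29 body peaks came to 5.6 per 100 kb, against 5.38 per 100 kb for protein-coding genes together, so the bodies were about as dense in peaks as others. Tdrd9 had 11 body peaks, Tdrd1 7, Mov10l1 4, Rnf17 3, Piwil2 2, and Asz1 and Ddx4 1 each. Most were narrow and low. The 21 at the lowest background had a median width of 323 bp and a median pileup of 80 reads, below the 355 bp and 98 reads of protein-coding body peaks at that background.

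By their medians, the other body peaks were wider and higher. The background exceeded the lowest in 8 of the 29 (27.6%), against 15.3% of protein-coding body peaks. These 8 had a median width of 682.5 bp, a median pileup of 396 reads and a median background of 47.2 reads. Protein-coding body peaks above the lowest were also wide and high, with medians of 657 bp and 327 reads. Their median background was 16.5 reads. The single body peak of Asz1 (chr6:18062967-18063708) was one of them, with 396 reads over 47.6 reads and a fold of 8.17. Its pileup interval (358 to 437 reads) overlapped that of the start peak of the gene. Mov10l1 had 3, all between 49.7 and 57.4 kb downstream of the start, with pileups of 241, 396 and 429 reads over 15.3, 26.3 and 55.2 reads. Tdrd9 had 2, with 407 reads over 70.5 reads and 395 reads over 46.9 reads.

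The most reads of any peak in these genes were found in the body of Tdrd1. A peak of 441 bp (chr19:56847865-56848305) had 554 reads (509 to 602) over 50.2 reads, a fold of 10.8. It closed a row of 3 peaks separated by just over 100 bp, of which the others had 158 reads over 35.5 reads and 145 reads over 6.37 reads. The widest peak of all, 1107 bp, lay in the body of Piwil2 (chr14:70428424-70429530), with its midpoint 7.92 kb from the upper-coordinate end. It had 243 reads (213 to 276) over the lowest background, and its fold of 33.1 was the highest among the body peaks. Rnf17 had only peaks at the lowest background in its body, with 80 to 152 reads, as did Ddx4, with 102 reads.

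**Figure D4:**
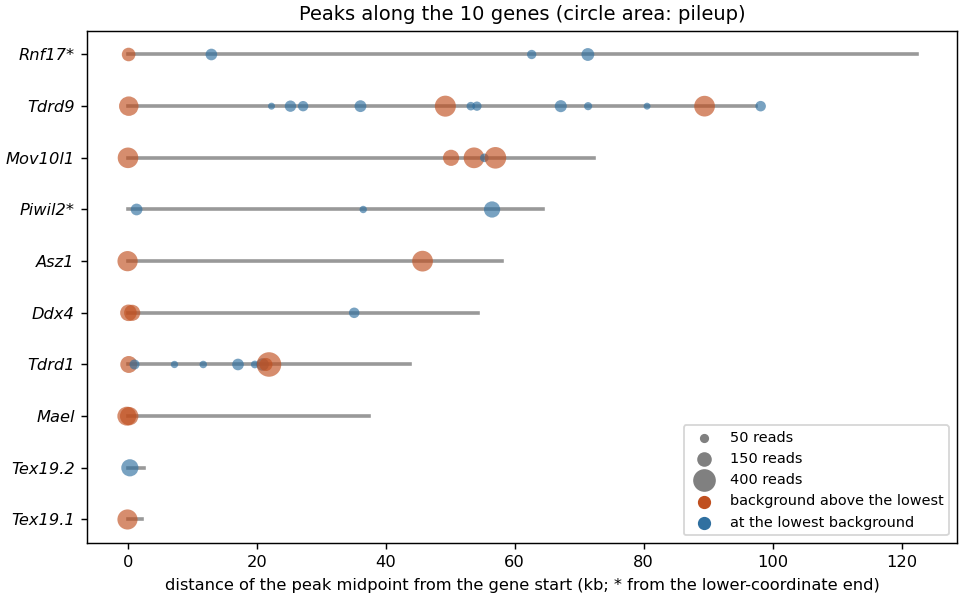
Peaks along the 10 genes, placed by the distance of their midpoint from the gene start in kb (from the lower-coordinate end for Rnf17 and Piwil2, marked with asterisks), with circle area proportional to the pileup in reads. Grey lines are the genes; orange circles had a background above the lowest and blue circles the lowest, and the body of Tdrd1 holds the circle of 554 reads.

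Other genes of the pathway were mixed. Of 20 further piRNA genes 17 lay on covered sequence, and 10 of these had a peak within 2 kb of a gene end, against the 37.1% of all protein-coding genes. Where the table gave a start, a peak overlapped its window in 5 of 12 genes, against 2.92% of protein-coding genes. Gtsf1, a zinc-finger cofactor of PIWI proteins, had 300 reads over 6.37 reads there, a fold of 40.8. Piwil1, which encodes MIWI, had 251 reads over 6.37 reads and a fold of 34.2. Btbd18, a nuclear factor for piRNA precursor transcription, had 374 reads over 86.8 reads, a fold of 4.27, which placed it with Mael and Ddx4. Fkbp6, a co-chaperone in piRNA loading, had 392 reads over 90.4 reads and a fold of 4.30 at the start used here, which lies inside the annotated gene, and 65 reads over 6.37 reads, a fold of 8.95, in a second peak 43.5 bp from the outer gene end. Gpat2, a mitochondrial outer-membrane protein, had 197 reads over 6.37 reads and a fold of 26.9.

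In the remaining genes with a gene-end peak, the start window had none or no start was given. Henmt1, which methylates the last nucleotide of piRNAs, had 3 gene-end peaks with 225 to 310 reads. Tdrd7, another Tudor-domain protein, had its peak at the far end, with 234 reads over 6.37 reads. Morc1, Spocd1 and Pnldc1, the last of which trims piRNAs, had gene-end peaks with no start in the table, and that of Morc1 had 268 reads and a fold of 36.5. The 7 covered genes without a gene-end peak were Tdrd5, Tdrd6, Tdrkh, Pld6, Exd1, Mybl1 and Dnmt3l.

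Genes that silence or restrict transposons in somatic cells were read for comparison. Of 16 such genes 14 were covered, and 7 had a gene-end peak, beside 37.1% of protein-coding genes. A peak over the start window was found in 0 of the 13 with a start in the table, which is near the 2.92% of protein-coding genes and is no result about this list. For peaks at the far end no share over all protein-coding genes is given, so their side is no result about this list either. The 6 of these 13 with a gene-end peak had it at the far end. These were Daxx, a histone chaperone, Morc3, an ATPase that silences retroviral elements, Zc3hav1, an antiviral RNA-binding protein, Samhd1, a nucleotide hydrolase, Apobec3, a cytidine deaminase, and Dicer1, which cuts small RNA precursors. The peak of Ago2, an Argonaute protein, lay at the lower-coordinate end, with no start in the table. Apobec3 alone had a background above the lowest, with 409 reads over 14.8 reads. Their upstream stretches held a median of 19 CpG, against 15 in the germline group. The difference between these lists was described by counts and was not tested.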

How the data were processed

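Methylated DNA was profiled by MBD-seq in 6 chondrocyte cultures. The submitters' processing notes name fastp, Bowtie2 and MACS2, and the builds mm10 and GRCm38, without their roles. The deposited list follows the narrowPeak layout: the deposited fold enrichment is a ratio over background, −log10 p and −log10 q are the authors' values, and the deposited score is 10 times the −log10 q, cut to a whole number. The file's peak names record a Samtools merge of 3 datasets before peak calling. The lowest −log10 q was 20.0. The list used here ends within chromosome 6 (1 incomplete line was left out) and covers 15 other chromosomes, so other sequence was not analysed here. Peak starts count from 0 in the file and are printed from 1.

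Pileup and background were solved from fold = (pileup + 1)/(background + 1) and the Poisson probability of more reads than the pileup. A whole-number pileup was accepted when it gave the deposited −log10 p to within 1% of the step to the next whole pileup. Of the peaks, 99.97% met this, including all peaks described here, and 22 did not. On 5000 peaks simulated with the same formulas, 99.98% of pileups were recovered, and 0% matched when the pileup was not a whole number. The simulation checks the solving only, and not whether the deposited values follow these formulas. That MACS2 made the values in this way is inferred from the match of the deposited peaks. A background more than 0.5% over 6.37 reads counted as above the lowest.

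Genes, starts and sequences came from RefSeq GRCm38.p6. Peaks were placed by midpoint, except where overlap with the start window is stated (at least 1 bp). Of several starts with a promoter sequence, the outermost was used, which in some genes lies inside the annotated gene. All 10 genes, all their peaks, and pathway genes with a gene-end peak are named. Members and gene lists were chosen with earlier results of these data known. Python 3.11.15, numpy 2.4.6, scipy 1.17.1 and pandas 2.3.3 were used. No test was made, and percentages over protein-coding genes serve as background. Alternatives were windows of 500 bp, 1 kb and 5 kb, placement by summit or overlap, −log10 q of at least 50 or 100, and merging peaks within 500 bp.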

Additional observations from a re-analysis of the deposited data

How the results depend on the processing

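No paired analysis was possible because the peaks carry no values per culture, and for the same reason no replicate was left out. Of 88 values recomputed under the alternatives, 76 stayed within 1.5 times the reported count or inside the 95% binomial interval of the reported median. With 14 peaks that interval is wide. The median background of the gene-end peaks counted as unchanged, yet ran from 10.28 reads (5 kb window) to 30.6 reads (1 kb window), against 21.76 reads in the main setting. A −log10 q of at least 100 left 8 of the 14 gene-end peaks, 6 of the 10 above the lowest background and 15 of the 29 body peaks. It left 4 of the 7 somatic silencing genes and 3414 of the 5893 protein-coding genes with a gene-end peak. A −log10 q of at least 50 left 19 body peaks. For windows of 500 bp, 1 kb and 5 kb the protein-coding genes with a gene-end peak numbered 1805, 3437 and 9566, and the somatic silencing genes 4, 4 and 12. These changes follow from fewer peaks or another window. The 10 genes described here numbered 9, 9 and 10 under the same windows. Depth per culture is unknown, so a start without a listed peak may carry methylation below the threshold of the list.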
